A study of Bos taurus with 12 samples.

Results

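The marker genes of macrophages and of antigen presentation were followed in mammary tissue of dairy cows before and during feed restriction. The 10 genes were CD14, CD68, CD163, CSF1R and AIF1 for macrophages, PTPRC for all leukocytes, and CD74, BOLA-DRA, BOLA-DMA and BOLA-DMB for presentation of antigen on MHC class II. The members were chosen by symbol, through the RefSeq accession that the array design gives for each probe. Of the 10 symbols, 9 were matched, by 23 probes of the 43653 non-control probes and as 9 of the 12787 named genes on the array. BOLA-DMA was not analysed here, because no accession on the array was paired with it.

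RNA came from biopsies of the rear udder of 6 multiparous Holstein cows in mid-lactation, each sampled in both periods, which gave 6 arrays per group. In the control period (CONT, day 0) the cows ate a lactation diet without limit, and in the restriction period (REST, day 6) feed was reduced to cover 50% of the net energy requirement for lactation (NEL). Every cow was measured under CONT first and under REST later, so that feed level and elapsed time cannot be told apart. The study's methods state that biopsy sites alternated between the rear glands of the udder, and the REST biopsy followed the CONT biopsy. Feed level thus cannot be told apart from effects of the earlier biopsy, nor, within a cow, from the gland sampled. The sources used here do not say which gland was sampled in which period. The labels name 6 cows while the series text counts 5, and the study's methods state that a Holstein cow with mastitis was excluded. Which cow that was is not given in the sources used here, so the changes and the counts of calls were also computed with each cow left out in turn.

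Macrophages lie along the ducts and alveoli of the mammary gland and in its stroma, where they clear dead cells and milk lipid, and they depend on signalling through CSF1R, the receptor for the cytokines CSF1 and IL-34. Presentation on class II needs a pair of class II chains, such as the alpha chain encoded by BOLA-DRA, the invariant chain CD74 that occupies their groove during transport, and the DM heterodimer, of which BOLA-DMB is the beta chain, that exchanges the remnant of CD74 for an antigen peptide. Class II genes and CD74 are also used by B cells and dendritic cells and can be induced in epithelium, and CD14 is also made by mammary epithelium. In a piece of whole tissue, fewer cells of a type and less RNA per cell cannot be told apart.

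The arrays were 1-colour Agilent bovine arrays on 3 slides, and both arrays of a cow shared a slide. Levels are given as normalized signal, the log2 of the processed intensity minus the 75th percentile of the array, so that 0 is the level below which 75% of spots lie, and 1 unit is a doubling. The 75th percentile was 252 to 390 intensity units on the 8 arrays of slides 1 and 2 and 73.2 to 117 on the 4 arrays of slide 3 (cows 5 and 6), and 61.8% to 67.9% against 41.9% to 48.0% of spots were well above background. No spot was saturated. Of 14 luminal epithelial genes on the array, 12 could be tested, so epithelial transcripts of the labelled tissue were present. Levels of different probes are not set against each other, since probes differ in binding. With 12 arrays, the number of arrays limits the precision.

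A probe was tested where it was well above background on every array of at least 1 group, and a gene was represented by its tested probe of highest mean signal. The change is REST minus CONT within the cow, from limma with the cow as a block, with Benjamini-Hochberg adjustment of p over the 19406 probes tested. A call is an adjusted p under 0.1. Of the 23 probes 19 were tested, covering all 9 genes. The other 4, 1 each for CD68, CSF1R, PTPRC and BOLA-DMB, were well above background on at most 4 of 12 arrays, and no level is drawn from them.

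No marker gene passed the test. By limma, 0 of 9 genes and 0 of 19 probes were called, against 16.2% of all 7932 tested genes (6.95% higher and 9.27% lower) and 16% of all tested probes. At an unadjusted p under 0.05 there were 1 gene, CSF1R, and 3 probes, against 27.7% of tested genes and 27.6% of tested probes. In the fit without the cow block the counts were 0 and 0 at either threshold, against 4.41% of tested genes and 4.31% of tested probes called, and 16.9% of each at an unadjusted p under 0.05. The CONT and REST arrays overlapped for all 19 probes, while they did not overlap for 2.25% of all tested probes. For the probe of highest signal of each gene other than CD163, the 95% intervals reached from -0.52 (AIF1) to 0.55 (CD68). The interval of CD163 reached 0.68, but this gene passed the filter on dim probes only through the REST arrays, where it was higher. The median size of change was 0.17 for the markers, 0.15 for all tested genes and 0.42 for the called genes, and the median standard error was 0.12 for the markers and 0.10 for all tested genes.

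**Figure D1:**
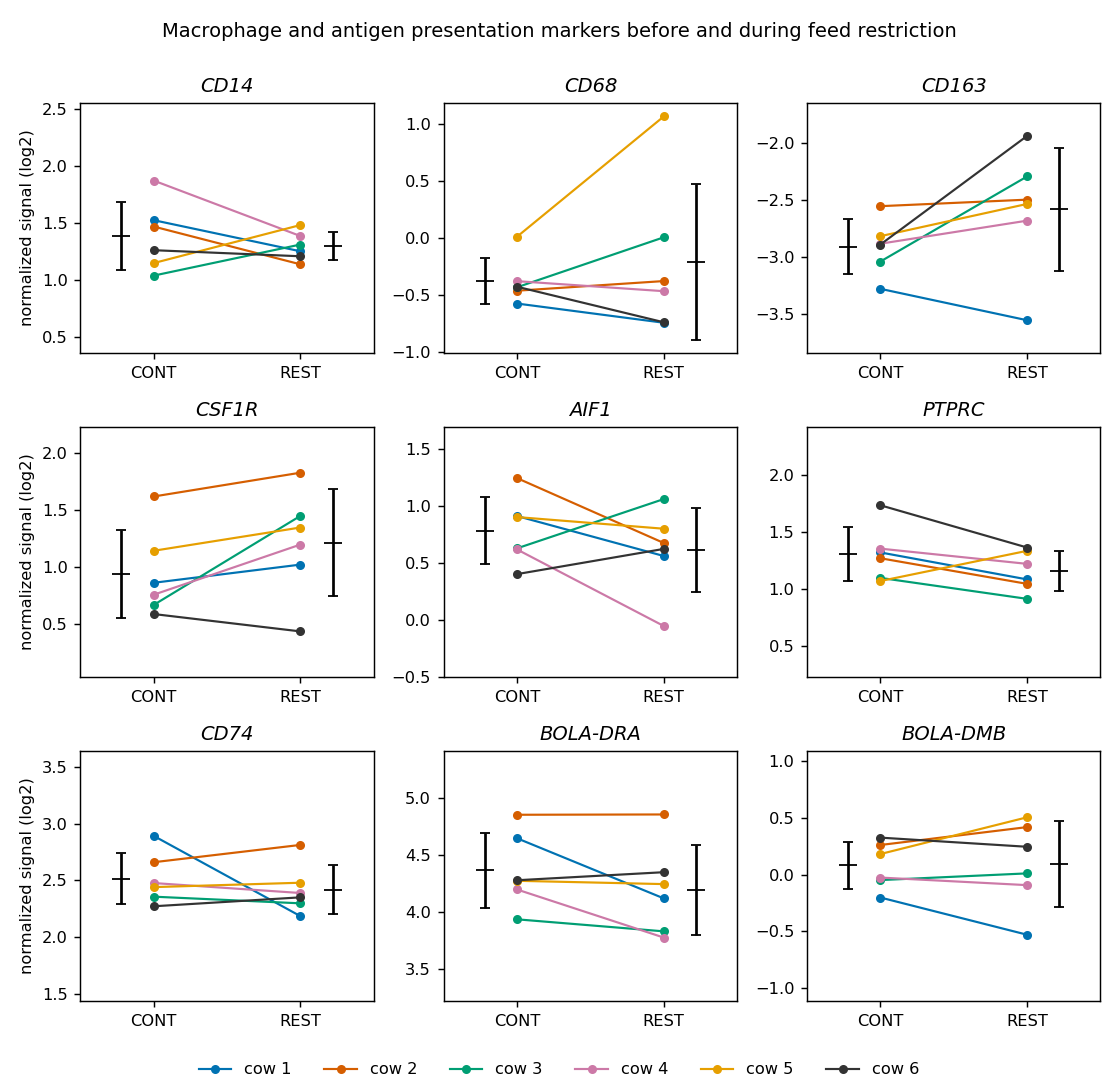
Normalized signal (log2, vertical axis) of the probe of highest signal of each of the 9 marker genes under CONT and REST. Each coloured line joins the 2 arrays of 1 cow, the black bars beside them are mean ± SD (n = 6), and every panel spans the same number of log2 units around its own centre. In all 9 panels the CONT and REST points overlap, with cow 5 far above the others for CD68 under REST and cow 1 with the widest fall for CD74 (-0.71).

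The plot of levels before and during restriction shows the 5 macrophage genes first. CD14, the co-receptor that hands bacterial lipopolysaccharide to TLR4, had a lowest, median and highest normalized signal of 1.04, 1.37 and 1.87 under CONT and of 1.14, 1.28 and 1.48 under REST. Cow 4 was highest under CONT and cow 5 under REST, and the 4 cows with lower signal under REST faced 2 with higher signal. The change was -0.09 (SE 0.12, n = 6 cows, limma adjusted p = 0.673). A weaker CD14 probe, which followed the first over the 12 arrays (r = 0.81, with no independent cells or RNA behind it), gave 0.03 (adjusted p = 0.902). By slide, the mean within-cow difference of the first probe was -0.30 on slide 1, -0.11 on slide 2 and 0.14 on slide 3.

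CD68, a glycoprotein of lysosomes and endosomes that is abundant in phagocytes, ranged from -0.58 through a median of -0.43 to 0.01 under CONT, and from -0.74 through -0.42 to 1.07 under REST. The medians were nearly equal, and cow 5 was the highest in both periods. Under REST 3 cows were higher and 3 lower, with differences from -0.31 in cow 6 to 1.06 in cow 5. The change was 0.17 (SE 0.17, limma adjusted p = 0.553), and it was -0.0091 (adjusted p = 0.967) without cow 5, which alone set its sign.

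CD163, the scavenger receptor for haemoglobin bound to haptoglobin, lay near the detection limit, where 4 of its 6 CONT spots and 6 of its 6 REST spots were well above background. It passed the filter through its REST arrays. Its signal was -3.28, -2.89 and -2.56 (lowest, median, highest) under CONT and -3.56, -2.52 and -1.94 under REST. Cow 1 was lowest in both periods, and 5 of 6 cows were higher under REST. The change was 0.33 (95% interval -0.02 to 0.68, SE 0.15, limma adjusted p = 0.207). With background correction by normexp in place of the scanner's, the change was -0.05, so its direction was not settled.

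CSF1R, the receptor tyrosine kinase on which macrophage survival depends, was the only gene of the set at an unadjusted p under 0.05. Under CONT it ranged from 0.59 (cow 6) through a median of 0.81 to 1.62 (cow 2), and under REST from 0.44 (cow 6) through 1.27 to 1.83 (cow 2). The same cows were thus lowest and highest in both periods, and 5 of 6 cows had a higher signal under REST. The change was 0.27, or 1.21-fold (95% interval 0.01 to 0.54, SE 0.12, limma adjusted p = 0.174). Within slides it was 0.18 on slide 1, 0.61 on slide 2 and 0.03 on slide 3, so cows 3 and 4 carried most of it. Leaving out 1 cow at a time gave 0.17 to 0.36 with adjusted p from 0.116 to 0.346. After normexp background correction it was 0.29 with an adjusted p of 0.0891, the only setting under which a marker gene was called by its probe of highest signal.

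AIF1, the calcium- and actin-binding protein also known as IBA1, ranged from 0.40 through a median of 0.77 to 1.25 under CONT and from -0.05 through 0.65 to 1.06 under REST. Under REST 4 cows were lower and 2 higher, and cow 4, with the greatest difference (-0.67), had the lowest REST signal. The change was -0.17 (SE 0.15, limma adjusted p = 0.489).

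PTPRC encodes CD45, the tyrosine phosphatase on the surface of all nucleated blood cells, and its 3 tested probes disagreed. The probe of highest signal ranged from 1.07 through a median of 1.30 to 1.74 under CONT and from 0.91 through 1.15 to 1.36 under REST. It was lower under REST in 5 of 6 cows and higher in cow 5, with a change of -0.15 (SE 0.10, limma adjusted p = 0.348). A second probe had -1.0, -0.53 and 0.00 under CONT and -0.69, -0.16 and 0.27 under REST, higher in 5 of 6 cows, and its change was 0.30 (SE 0.10, limma adjusted p = 0.106). The remaining probe had -2.26, -1.72 and -1.07 under CONT and -2.0, -1.38 and -0.86 under REST, higher in 6 of 6 cows, with a change of 0.33 (SE 0.12, limma adjusted p = 0.122). Over the 12 arrays the 3 probes correlated with each other at r from -0.18 to 0.35, so they did not follow 1 level. The mean over the 3 probes changed by 0.16. When the test was restricted to probes well above background on all 12 arrays, the second probe reached an adjusted p of 0.0931. Which transcripts of PTPRC each probe binds was not examined, since the probe sequences were not used here.

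**Figure D2:**
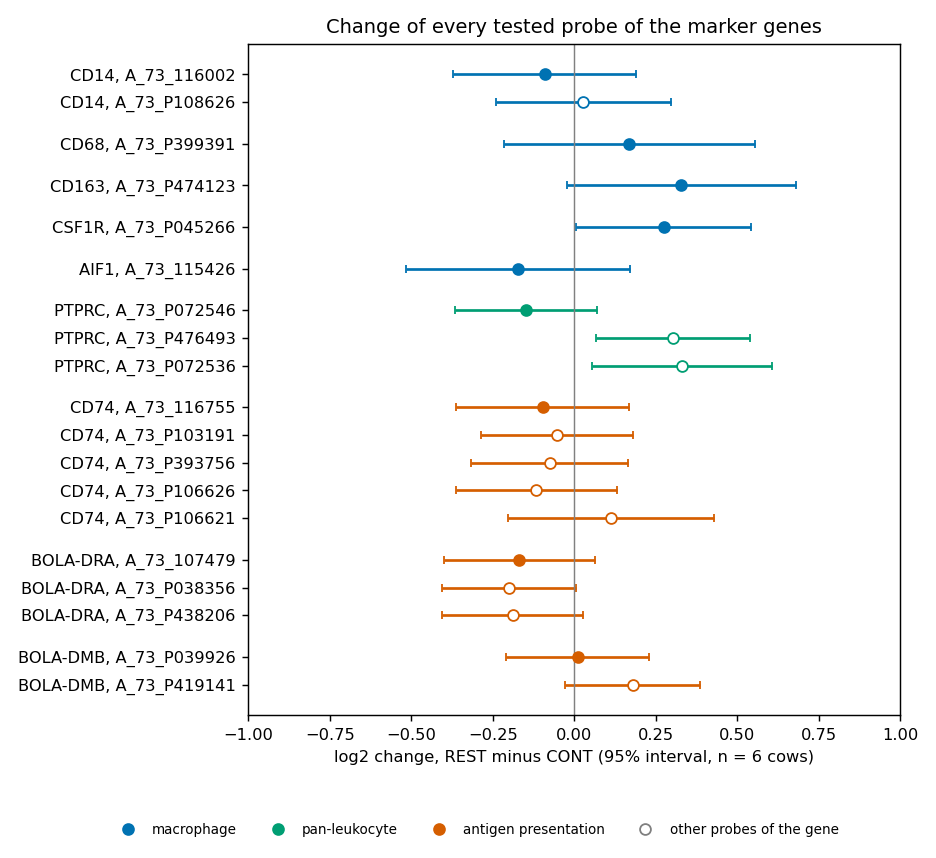
Change from CONT to REST (log2, horizontal axis) of each of the 19 tested probes, grouped by gene and named by probe identifier, with bars for the 95% interval from limma with the cow as a block (n = 6 cows). Filled points are the probe of highest signal of the gene. All intervals lie between -0.52 and 0.68, and 3 exclude 0 before adjustment, those of CSF1R and of 2 PTPRC probes, while the PTPRC probe of highest signal lies on the other side of 0.

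The antigen presentation genes were measured by more probes, and these followed each other more closely for CD74 and BOLA-DRA. CD74, the invariant chain, had 2.27, 2.46 and 2.89 (lowest, median, highest) under CONT and 2.19, 2.37 and 2.81 under REST with its probe of highest signal. Cow 1 had the highest CONT signal and the lowest REST signal, and the other 5 cows moved by -0.09 to 0.15. The change was -0.10 (SE 0.12, limma adjusted p = 0.626). The 5 CD74 probes correlated at r from 0.54 to 0.96 and changed by -0.12 to 0.11, 4 of them downwards, with adjusted p from 0.522 to 0.774.

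BOLA-DRA, the class II alpha chain of the DR molecule, had 3.94, 4.28 and 4.86 under CONT and 3.78, 4.18 and 4.86 under REST. Cow 2 was highest in both periods, and 4 cows were lower and 2 higher under REST. The change was -0.17 (95% interval -0.40 to 0.06, SE 0.10, limma adjusted p = 0.318). The 3 probes correlated at r from 0.76 to 0.96 and all gave values below 0, from -0.20 to -0.17, with adjusted p from 0.191 to 0.318. The probe of lowest signal was lower under REST in 6 of 6 cows, with differences from -0.60 to -0.01 and a change of -0.19 (adjusted p = 0.237).

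BOLA-DMB, the beta chain of the peptide exchange factor DM, ranged from -0.20 through a median of 0.08 to 0.32 under CONT and from -0.53 through 0.13 to 0.50 under REST. Cow 1 was lowest in both periods, 3 cows were higher and 3 lower, and the change was 0.01 (95% interval -0.21 to 0.23, SE 0.10, limma adjusted p = 0.956). A weaker probe was higher under REST in 6 of 6 cows, by 0.01 to 0.56, and changed by 0.18 (SE 0.09, limma adjusted p = 0.243). These 2 probes correlated at r = 0.12 over the 12 arrays.

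**Figure D3:**
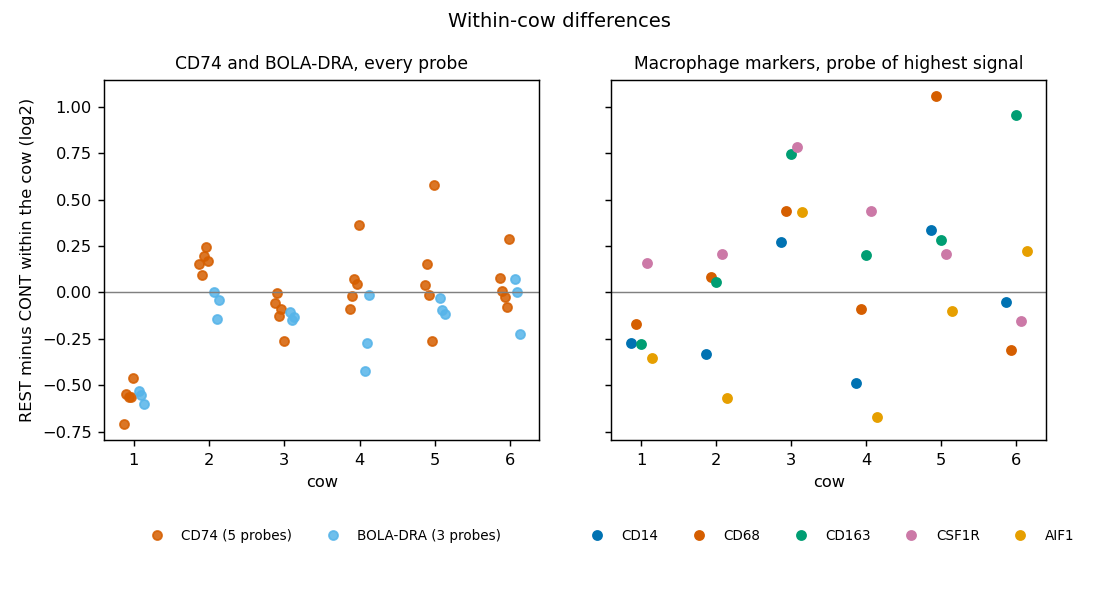
Within-cow difference, REST minus CONT (log2, vertical axis), for each of the 6 cows (horizontal axis). Left, all 5 CD74 and 3 BOLA-DRA probes, which lie between -0.71 and -0.46 in cow 1 and between -0.42 and 0.58 in the others. Right, the 5 macrophage genes by their probe of highest signal, which differ in sign within 5 of the 6 cows.

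The plot of within-cow differences shows cow 1 lowest for each CD74 and BOLA-DRA probe. All 8 probes of the 2 genes were lower under REST in cow 1, with a median difference of -0.56, and in cow 3, with a median of -0.11. The medians of the other 4 cows ran from -0.02 to 0.12. Relative to the mean of each probe over the 12 arrays, the median level of the 8 probes in cow 1 was 0.36 under CONT and -0.22 under REST. Cow 2 was the other cow with high levels, at 0.30 under CONT and 0.38 under REST. Without cow 1, the change of CD74 was 0.02 and that of BOLA-DRA -0.10. In cow 1, 8.77% of all tested genes had a difference at or below that of BOLA-DRA, and the SD of its differences over genes, 0.46, was within the range of the other cows (0.35 to 0.46). Below 0 in cow 1 as well were the median differences over 3 other class II chains (-0.28), 10 fibroblast genes (-0.63), the 5 macrophage markers (-0.27), 4 dendritic cell genes (-0.11), 21 other macrophage and monocyte genes (-0.01), 5 neutrophil and mast cell genes (-0.06) and 2 erythrocyte genes (-0.10), and the differences of PTPRC (-0.24) and of the adipocyte gene FABP4 (-0.31). Above 0 were those over 12 luminal epithelial genes (0.33), 9 endothelial genes (0.36), 13 pan-leukocyte genes (0.15), 12 T cell and NK cell genes (0.11) and 5 B cell and plasma cell genes (0.10). Their part in the result was not tested.

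The 5 macrophage genes differed in sign within 5 of the 6 cows. In cow 3 all 5 were higher under REST, and in cow 1 all but CSF1R were lower. Over the 12 arrays, the 36 pairs among the 9 genes had correlations from -0.54 (CSF1R with PTPRC) to 0.77 (CD74 with BOLA-DRA), with a median of 0.20. Only 3 pairs exceeded 0.5, CD74 with BOLA-DRA, CD163 with BOLA-DMB (0.68) and CD68 with BOLA-DMB (0.53). These correlations describe 12 arrays that share 6 cows and 3 slides.

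The genes whose pattern over the 12 arrays was most like the mean profile of the 5 macrophage markers were PYCARD (r = 0.91), MGC157082 (0.84), CCN3 (0.82), EFEMP2 (0.80) and KMT5A (0.77). For the mean profile of CD74, BOLA-DRA and BOLA-DMB they were DSB (0.94), RLIM (0.83), IFI6 (0.83), PPME1 (0.82) and SEC11C (0.82). PYCARD is the inflammasome adaptor ASC, and IFI6 is induced by interferon. None of the 10 passed the test between CONT and REST.

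The machinery around the markers was read from 7 lists, which together held 128 genes, of which 85 different genes were tested. In these, 15 genes were called (12 higher and 3 lower under REST), which is 17.6% and near the 16.2% of all tested genes, and 0 of the 15 calls held without the cow block, where 10 of the 85 had an unadjusted p under 0.05. The count fell to 3 without cow 2, to 5 without cow 4 and to 8 without slide 3. Each value below is a within-cow change with the limma adjusted p, the cow as a block.

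Class II chains other than the markers did not pass the test. BOLA-DQB changed by -0.09 (SE 0.09, adjusted p = 0.552), BOLA-DQB1 by -0.09 (SE 0.09, adjusted p = 0.537) and BOLA-DOA by 0.04 (SE 0.11, adjusted p = 0.839), each with 2 of 6 cows higher. A further 4 class II chains on the array were too dim to test. The median over the 3 tested chains was -0.09, beside -0.10 for the 3 antigen presentation markers and -0.01 for all tested genes.

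Genes that process antigen for class II, or regulate it, were estimated higher under REST. Of 12 tested genes 3 rose, none fell and 9 did not pass the test. Of all tested genes 6.95% were called higher, and 0 of the 12 were called without the cow block. The median change was 0.33, with all 12 estimates above 0, in a list chosen with earlier results known. Of the 12, 2 passed the filter through the REST arrays only, and the median of the other 10 was 0.32. IFI30, the lysosomal thiol reductase that unfolds antigen, rose by 0.53 (SE 0.10, adjusted p = 0.021) in 6 of 6 cows. CTSS, the protease that trims the invariant chain CD74, rose by 0.48 (SE 0.15, adjusted p = 0.078) in 5 of 6 cows, and IFNGR1, a chain of the interferon gamma receptor, by 0.40 (SE 0.12, adjusted p = 0.073) in 5 of 6. Cow 1, whose CD74 and BOLA-DRA were lower, had the highest IFI30 difference (0.86) and was the cow with lower CTSS (-0.26). The calls of CTSS and IFNGR1 were each lost when any of 5 of the 6 cows was left out, and that of IFI30 was kept in all 6 cases. With the cow as a random block IFI30 did not pass (adjusted p = 0.1001), and neither did CTSS as the mean over its 2 probes (0.37, adjusted p = 0.182).

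The following genes of that list did not pass the test. The proteases legumain (LGMN), CTSL and CTSB changed by 0.28 (adjusted p = 0.115), 0.38 (adjusted p = 0.250) and 0.05 (adjusted p = 0.771). IRF1, a transcription factor induced by interferon gamma, changed by 0.36 (adjusted p = 0.207). Of the factors that bind class II promoters, RFX5 changed by 0.01 (adjusted p = 0.978), and the NF-Y subunits NFYA, NFYB and NFYC by 0.24 (adjusted p = 0.155), 0.30 (adjusted p = 0.168) and 0.22 (adjusted p = 0.181).

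Other macrophage and monocyte genes gave calls in both directions. Of 21 tested, 4 rose, 1 fell and 16 did not pass the test, with a median of 0.21. Over all tested genes 6.95% were called higher and 9.27% lower, and 0 of the 21 were called without the cow block. Of the 21, 4 passed the filter through the REST arrays only, and the median of the 17 genes above background on all arrays was 0.21 as well. GPNMB, a lysosomal glycoprotein of lipid-laden macrophages that other cells also make, rose by 0.94 (SE 0.20, adjusted p = 0.032) in 6 of 6 cows, and LGALS3 (galectin-3), also an epithelial gene, rose by 0.90 (SE 0.23, adjusted p = 0.049) in 5 of 6. MPEG1, the pore-forming perforin-2 of phagocytes, rose by 0.35 (SE 0.10, adjusted p = 0.061) in 6 of 6 cows. C1QA, a chain of complement C1q, fell by 0.47 (SE 0.11, adjusted p = 0.038) in 6 of 6 cows. The fifth call was CTSD (0.27, adjusted p = 0.077), named here after its value was seen. The calls of LGALS3, MPEG1, C1QA and CTSD each ended when some single cow was left out (cow 4 for C1QA, cows 2, 3 or 4 for LGALS3, cows 2, 3, 4 or 6 for MPEG1, and every cow but cow 1 for CTSD), and the call of GPNMB held without each. C1QA (adjusted p = 0.231) and MPEG1 (adjusted p = 0.188) did not pass with the cow as a random block, and MPEG1 did not after normexp (adjusted p = 0.187).

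Around CSF1R, 3 of 4 tested genes were called, 1 higher and 2 lower, against 16.2% of all tested genes. Without the cow block 0 of the 4 were called, and the list was chosen with earlier results of these data known. IL34, a ligand of CSF1R, rose by 0.56 (SE 0.16, adjusted p = 0.063) in 6 of 6 cows, while the other ligand, CSF1, was too dim to test. CEBPA and CEBPB, transcription factors of myeloid cells that mammary epithelium also uses, fell by 0.38 (SE 0.11, adjusted p = 0.066) and by 0.32 (SE 0.09, adjusted p = 0.056), both in 6 of 6 cows. The call of IL34 ended without cow 2 or 4, that of CEBPA without cow 2, 3, 4 or 5, and that of CEBPB without cow 1, 2, 3 or 6. After normexp IL34 (adjusted p = 0.146) and CEBPA (adjusted p = 0.162) did not pass either. In the list of CD14 and lipopolysaccharide sensing, 0 of 16 tested genes were called by their probe of highest signal (1 at an unadjusted p under 0.05), with a median of 0.02. A weaker probe of TLR2 was called at -0.48, where the probe of highest signal gave 0.05. For class I presentation, 1 of 17 was called by the probe of highest signal, TAPBPL, a relative of the chaperone tapasin, at 0.36 (SE 0.09, adjusted p = 0.041), and its call ended without cow 2 or cow 4. A weaker probe alone was called higher for 2 further class I genes, B2M (0.40) and JSP.1 (0.40), named after their values were seen.

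**Figure D4:**
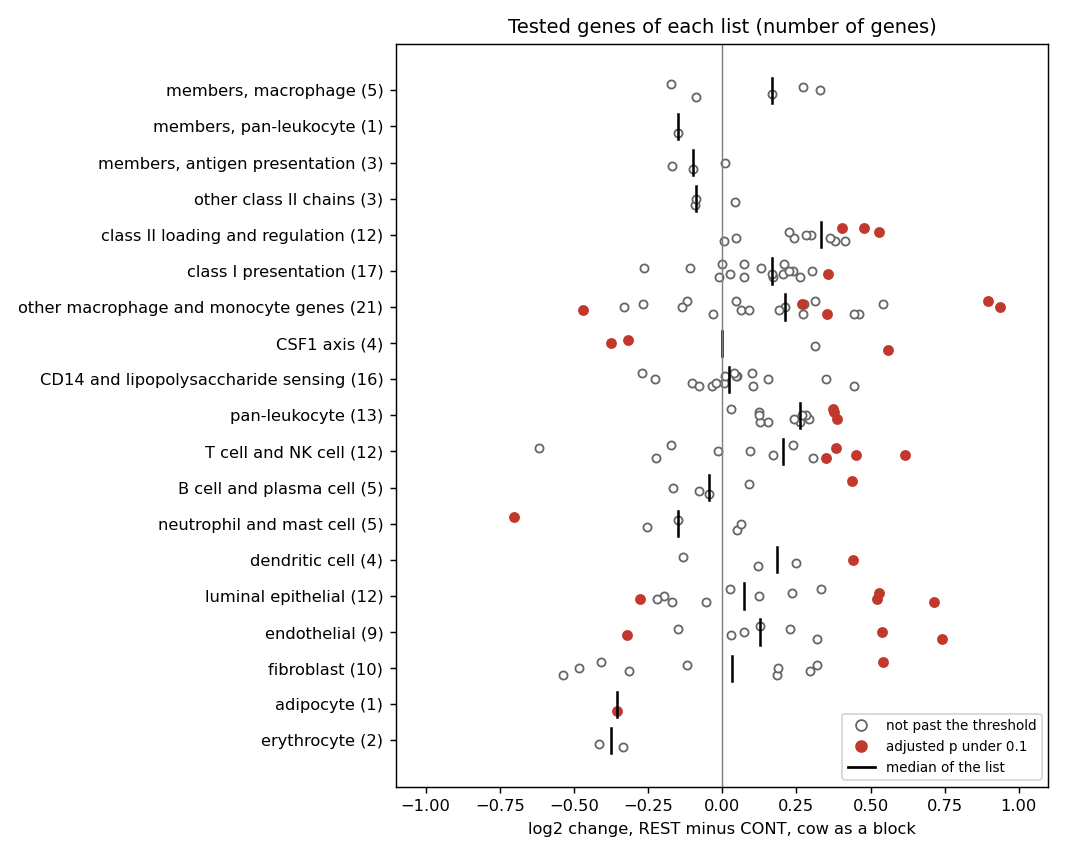
Change from CONT to REST (log2, horizontal axis, cow as a block) of every tested gene in each list, with the number of genes after the name of the list. Filled points passed an adjusted p of 0.1, open points did not, and the vertical bar is the median of the list. The 9 markers in the upper 3 rows are all open, while all 12 class II loading and regulation genes and all 13 pan-leukocyte genes lie above 0.

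For pan-leukocyte genes other than PTPRC the estimates were above 0, but most did not pass the test. Of 13 tested, 3 rose (6.95% of all tested genes did, and 0 of the 13 without the cow block), RAC2 by 0.39 (SE 0.10, adjusted p = 0.051), LAPTM5 by 0.38 (SE 0.12, adjusted p = 0.085) and CORO1A by 0.37 (SE 0.09, adjusted p = 0.040), and 10 did not pass the test, with a median of 0.26 (0.27 over the 12 above background on all arrays). All 3 calls ended without cow 2, that of RAC2 also without cow 4, and that of LAPTM5 without any cow but cow 4. A second RAC2 probe gave -0.05. LAPTM5 (adjusted p = 0.103) and CORO1A (adjusted p = 0.142) did not pass with the cow as a random block, nor RAC2 as the mean over its 2 probes (0.17, adjusted p = 0.204). After normexp CORO1A did not pass (adjusted p = 0.119). The list had a median difference above 0 in 5 of 6 cows and of -0.07 in cow 4. The probe of highest signal of PTPRC was on the other side of 0 from this list, and its 2 weaker probes, at 0.30 and 0.33, were on the same side.

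Among markers of other cell types most genes did not pass the test, and the counts of calls are read beside the 16.2% called over all tested genes. Of 12 T cell and NK cell genes 4 rose, GNLY (0.62, adjusted p = 0.024), CD8A (0.45, adjusted p = 0.035), CD247 (0.38, adjusted p = 0.052) and CD3E (0.35, adjusted p = 0.078). GNLY, CD8A and 2 others of the list passed the filter through their REST arrays only, where they were higher, so no support is drawn from them. The median of the list was 0.21, and 0.08 over the 8 genes above background on all arrays. The summed level of that list ran from 4.80 to 5.21 under CONT and from 4.91 to 5.23 under REST. A summed level is the log2 of the added linear signals, so probes of high signal carry most of it. Of 5 B cell and plasma cell genes 1, PIGR, was called (0.44, adjusted p = 0.096), the receptor that carries IgA across epithelium and is itself epithelial, and MS4A1, which defines B cells, was too dim to test. CD83 rose among 4 dendritic cell genes (0.44, adjusted p = 0.032), and HDC fell among 5 neutrophil and mast cell genes (-0.70, adjusted p = 0.094). Of these 5 genes 1 passed the filter through the CONT arrays only. The median of the 5 was -0.15, and -0.05 over the 4 above background on all arrays. The part of these lists in the levels of the markers was not tested.

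The structural cells of the gland were measured beside them. KRT8 (0.72, adjusted p = 0.0089), KRT7 (0.53, adjusted p = 0.060) and KRT18 (0.52, adjusted p = 0.068), keratins of luminal cells, rose among 12 luminal epithelial genes, and the casein gene CSN3 fell (-0.28, adjusted p = 0.078). In the endothelial list CLDN5 (0.74, adjusted p = 0.012) and VWF (0.54, adjusted p = 0.0073) rose and ENG fell (-0.32, adjusted p = 0.085) among 9 genes. FAP rose among 10 fibroblast genes (0.54, adjusted p = 0.046), of which 5 had values above 0 and 5 below, from -0.54 to 0.54, FABP4 fell as the only adipocyte gene tested (-0.35, adjusted p = 0.045), and neither of 2 erythrocyte genes was called. The list medians were 0.07 for luminal epithelial genes (7 of 12 above 0), 0.13 for endothelial genes (7 of 9) and 0.03 for fibroblast genes. The 2 filter-limited genes GNLY and CD8A are left aside here. Of the remaining calls in the lists of other cell types, those of CD83, KRT8, CLDN5 and VWF held with each cow left out. The rest ended without at least 1 cow, and only those of CLDN5 and VWF held without the cow block. The summed level of the 5 macrophage markers ran from 2.60 to 3.19 under CONT and from 2.60 to 3.23 under REST. These ranges overlapped almost fully. They leave out the pairing by cow, and the probes of high signal carry most of the sum, so no conclusion on change is drawn.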

How the data were processed

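The 12 arrays (1 colour, Cy3), 6 CONT and 6 REST, were analysed. The authors scanned them and made processed intensities with Agilent Feature Extraction 11 per the labels (11.0.1.1 per the file headers, grid built on UMD_3.1), and deposited these as scanner files. The deposited series table held the same intensity values in all 45220 spots of each array. Deposited flags (well above background, non-uniform, population outlier, saturated) set the filters, and 1 to 13 marked spots per array were left out. From the intensities log2 values minus the 75th percentile of the array were computed, repeat spots averaged, and accessions named through RefSeq (62.2% of probes).

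REST and CONT were compared with limma 3.58.1 (R 4.3.3), two-sided, with the cow as a fixed block. The pairing comes from the animal named in the labels, and the 2 arrays of a cow deviated together from their group means (r from 0.36 to 0.57, against at most 0.13 with another cow). P-values measure the spread between cows sampled once per period. Tables and figures used Python 3.11.15, pandas 2.3.3 and matplotlib 3.10.9. The fit was tested on simulated data. The members and lists were chosen with earlier results of these data known. Genes named were the markers, at most 4 called genes per list by size of change, all tested class II genes and the 5 closest in pattern, and 1 gene that this rule names is not reported here. Alternatives were other blocks, scalings, background correction, filters and eBayes settings, each cow or slide 3 left out, an unpaired test without moderation, and the mean over probes. Promoter motifs and genome positions were not analysed here.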

Additional observations from a re-analysis of the deposited data

Results flagged for a closer look

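In 57 groups of 6 values (the CONT levels, REST levels and within-cow differences of the 19 tested probes), 6 had 1 cow whose gap to its nearest neighbour, divided by the range, was above Dixon's 95% critical value. Chance flags about 1 in 20 such groups, or 2.85 of 57, and groups of probes for 1 gene share their RNA.

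Of the 6, 3 were within-cow differences in cow 1. They were -0.71 for the CD74 probe of highest signal (other cows -0.09 to 0.15), -0.55 for a second CD74 probe (other cows -0.02 to 0.15) and -0.60 for the BOLA-DRA probe of lowest signal (other cows -0.23 to -0.01). A further 2 were in cow 5, which was hybridised on the dimmer slide 3. The CONT level of CD68 was 0.011 in cow 5 and -0.58 to -0.38 in the others, and the difference of the PTPRC probe of highest signal was 0.27 in cow 5 and -0.37 to -0.13 in the others. The last was the difference of the weaker BOLA-DMB probe, 0.56 in cow 2 and 0.01 to 0.19 in the others. No cause was tested for any of them.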

How the results depend on the processing

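The 9 marker changes were recomputed under the alternatives, and 170 values kept their sign and their side of the threshold, 8 changed sign and 1 passed the threshold. That one was CSF1R (0.29, adjusted p = 0.0891, after normexp). Other blocks, filters and eBayes settings, the unpaired test and the deposited series table gave each tested marker the same change. Their kept signs were fixed in advance and say nothing on stability, as at most the adjusted p could move. The signs turned for BOLA-DMB without cow 2 (-0.018), cow 5 (-0.052) or slide 3 (-0.044), CD163 (-0.054) and CD74 (0.021) after normexp, CD74 without cow 1 (0.025), CD68 without cow 5 (-0.0091), and PTPRC as a mean over probes (0.16). With 1 cow left out, BOLA-DMB ran from -0.052 to 0.078, CD68 from -0.0091 to 0.26 and CD74 from -0.15 to 0.025. The remaining markers kept their sign with each cow left out. CD14 ran from -0.17 (without cow 5) to -0.01 (without cow 4) and AIF1 from -0.29 (cow 3) to -0.07 (cow 4). CD163 ran from 0.20 (cow 6) to 0.45 (cow 1) and CSF1R from 0.17 (cow 3) to 0.36 (cow 6). PTPRC ran from -0.23 (cow 5) to -0.10 (cow 6) and BOLA-DRA from -0.22 (cow 6) to -0.10 (cow 1). Some other settings moved these further. BOLA-DRA was -0.023 and CD14 -0.009 after normexp. Without slide 3, BOLA-DRA was -0.26, CD14 -0.20 and CSF1R 0.40. The cause was not tested.

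Without the replicate block, so without pairing by cow, 837 probes were called in place of 3105, 0 marker genes, 0 marker probes and 0 in place of 15 genes of the 7 lists. With slide as a block 1899 probes and 3 list genes were called, without the filter on dim probes 388 and 1, with neither moderation nor pairing 723 and 0, and without slide 3 8 list genes. One marker gene and 1 marker probe were called after normexp, and 1 marker probe among probes above background on all arrays. Leaving out 1 cow gave 1045 to 3253 probes and 3 to 14 list genes, fewest without cow 2, and 0 marker genes or probes each time. On slide 3 only 41.9% to 48.0% of spots were well above background, which limits what cows 5 and 6 can show for dim probes such as CD163.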
